A study of Mus musculus with 8 samples.

Results

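The collagen genes of mouse liver were described here across 4 groups of mice that differ in genotype and in exposure to bacterial lipopolysaccharide (LPS). A gene was counted as a collagen chain when its name in the deposited table was "Col", a number, "a" and a number, with nothing after it. This gave 45 rows with 44 names, because Col27a1 has 2 rows, and 43 distinct sets of values, because Col2a1 and Col26a1 were both listed at 0 in all 8 libraries. The whole table holds 17294 features with a value above 0. By the structure of their proteins 11 names are fibrillar collagens, 6 are type IV chains of basement membranes and 27 belong to other classes.

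The groups were ApoE-Cyp7a1 transgenic mice given LPS, ApoE-Cyp7a1 transgenic mice without treatment, wild-type mice given LPS and wild-type mice without treatment, with 2 libraries each. All were male C57Bl/6J mice, and RNA came from whole frozen liver. LPS was injected daily at a dose of 1.5 mg/kg over 7 days. The transgene codes for Cyp7a1, which makes the first and rate-limiting step from cholesterol to bile acids, and the submitters' design text calls the transgene liver specific. The labels give no age, no vehicle injection and no origin of the transgenic line beyond the allele's name. Replicates were called biological by the submitters.

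Collagens are proteins of the extracellular matrix whose chains wind around each other into a helix. Fibrillar collagens give tissue its tensile strength, type IV collagen forms the sheet under endothelium and epithelium, and other classes coat fibrils, form beaded filaments or span cell membranes. In the liver, hepatic stellate cells, which turn into myofibroblasts after injury, and portal fibroblasts are the best known sources of fibrillar collagen. Endothelial cells make type IV collagen, and hepatocytes are a known source of collagen XVIII.

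Values were deposited in FPKM, fragments per kilobase of transcript scaled to the mapped fragments of the library, a level per length, so that levels of different genes can be set side by side. Depth is unknown, because the table holds no counts. Summed hepatocyte markers were at 12285 to 16982 FPKM in the LPS libraries and 14355 to 23658 FPKM in the untreated libraries, while the row of albumin itself, Alb, was listed at 0 in all 8 libraries. Of the 4 untreated libraries, 3 stood apart in markers of exocrine pancreas. The summed level was 4599 and 956 FPKM in untreated transgenic liver and 1247 and 72.8 FPKM in untreated wild-type liver, against 24.9 to 186 FPKM in the 4 LPS libraries. In bulk tissue, more cells of a type and more RNA per cell cannot be told apart.

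A member was tested if it reached 1 FPKM in at least 2 of the 8 libraries, which 17 members did. Of these, 14 also reached that level in at least 2 untreated libraries, and Col5a2, Col6a3 and Col16a1 did so only with LPS. Another 26 names stayed under the filter, with 0.986 FPKM as their highest value, in Col4a5. Col20a1 was kept apart because its row, at 8.51 to 9.89 FPKM, is identical to that of Arfgap1, so its signal cannot be assigned. Tests were made with limma on log2(FPKM + 1) over all 11463 tested features, and a gene was called where the p-value after Benjamini-Hochberg adjustment was under 0.05. Each change is a log2 difference on that scale with its standard error (SE), and it understates the change of genes with low levels.

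The levels of the 17 tested chains spread over a wide range in untreated liver. Col18a1, whose product releases the endostatin fragment, had the highest mean in all 4 groups, at 167 ± 9.64 FPKM in transgenic liver with LPS and 183 ± 13.8 FPKM in untreated transgenic liver (SD, n = 2 each). It made up 39.1% to 51.2% of all collagen FPKM in the LPS libraries and 77.6% to 82.4% in the untreated libraries. The second place was held by Col3a1 in transgenic liver with LPS, at 44.2 ± 1.74 FPKM (SD, n = 2), and by Col4a2 in untreated transgenic liver, at 7.75 ± 0.58 FPKM (SD, n = 2). In that untreated group Col4a2 and Col4a1, at 7.36 ± 1.56 FPKM (SD, n = 2), differed by less than the spread of Col4a1.

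**Figure D1:**
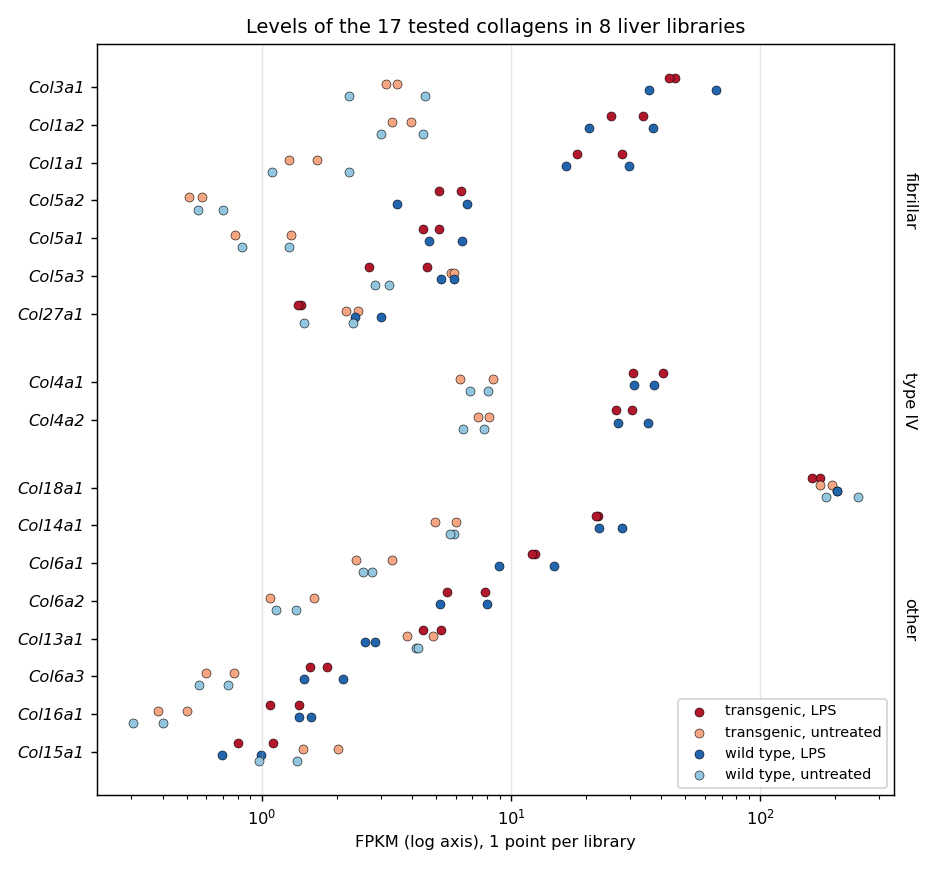
FPKM of the tested collagens in each of the 8 libraries on a log axis, grouped by class, with transgenic LPS, transgenic untreated, wild-type LPS and wild-type untreated libraries as separate marks. The LPS marks lie above the untreated marks for 12 of the 17 chains, beside 20.6% of all tested features. Among the 12 are Col5a2, Col6a3 and Col16a1, which met the filter only with LPS. Col18a1 lies above all other chains in every library.

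With LPS, 12 of the 17 tested collagens were higher and 0 were lower in transgenic liver, where 16.0% of all tested features were called higher and 10.5% lower. In wild-type liver 13 were higher and 0 lower, against 16.2% higher and 5.41% lower among all tested features. The 12 called in transgenic liver were all called in wild-type liver too, and the additional one was Col5a3. At an unadjusted p under 0.05, 3 chains were lower in transgenic and 1 in wild-type liver. Counting only the 14 chains that met the filter in untreated libraries alone, 9 were called higher in transgenic liver and 10 in wild-type liver. The share of all features called under that narrower filter was not computed, so these counts have no background beside them. After quantile normalization the counts were 10 higher and 3 lower in transgenic liver, beside 13.2% higher and 11.3% lower among all features. In wild-type liver they were then 10 higher and 2 lower, beside 12.7% and 8.67%, and the lower chains were Col5a3, Col15a1 and Col27a1 in transgenic and Col13a1 and Col15a1 in wild-type liver. The 2 LPS changes share no libraries with each other. However, the spread of each gene was estimated from both genotypes together, so the 2 sets of calls are not independent.

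The median change over the tested collagens was 1.71 in transgenic and 1.73 in wild-type liver, beside a median over all tested features of -0.04 and -0.05. Among the classes, the 7 fibrillar chains had a median change of 2.11 in transgenic and 1.85 in wild-type liver. The 2 type IV chains had a median of 1.95 in transgenic and 2.02 in wild-type liver, and the 8 chains of other classes had 0.66 and 0.82. These medians cover only chains that passed the filter and are given as a description, and the fibrillar ones are the values of Col5a2, which passed only through LPS libraries. Those of the other classes lie midway between the values of Col6a3 and Col16a1, which also passed only through LPS libraries. With a pseudocount of 0.1 the fibrillar medians were 2.96 in transgenic and 2.76 in wild-type liver, the type IV medians 2.07 and 2.15 and those of the other classes 1.26 and 1.58, so the order of fibrillar and type IV chains in wild-type liver turned with the pseudocount. After quantile normalization it was the order in transgenic liver that turned, with 1.87 for fibrillar and 2.07 for type IV chains, and the other classes were at 0.28 in transgenic and 0.35 in wild-type liver. The other classes were at 1.75 in both genotypes under a filter of 5 FPKM, and with the multiplexins counted as basement membrane chains that class was at 0.81 in transgenic and 0.96 in wild-type liver.

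**Figure D2:**
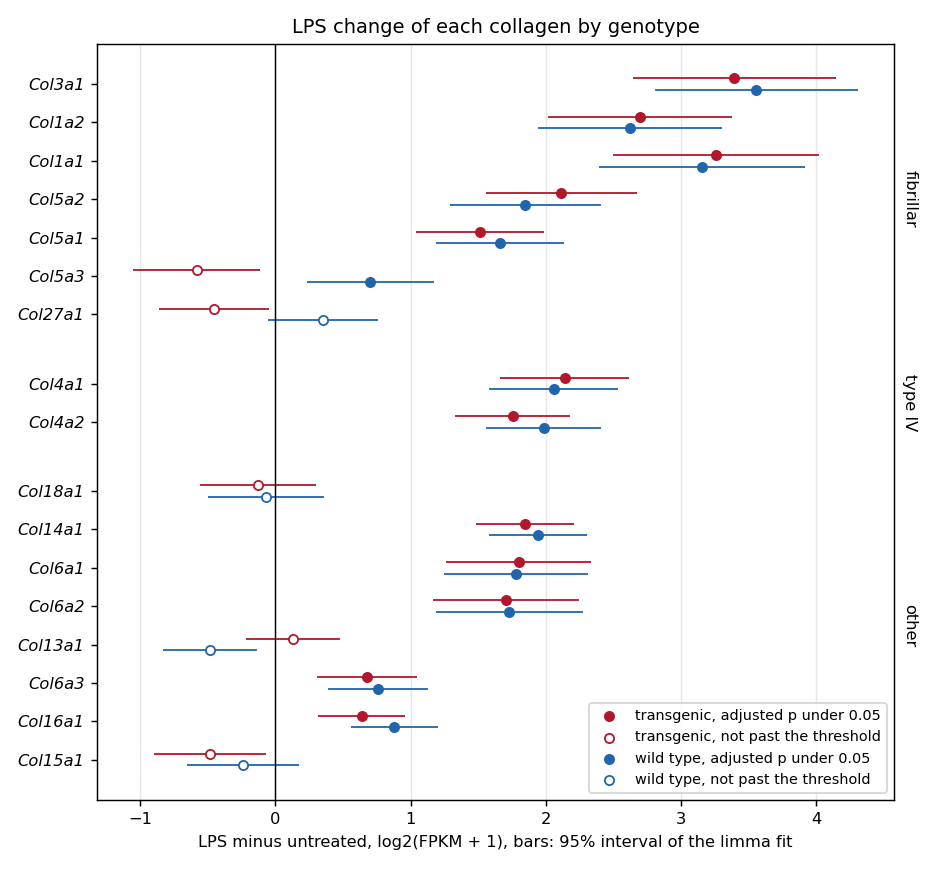
Log2 change of each tested collagen with LPS against untreated, in transgenic and in wild-type liver, with 95% intervals from limma. Col3a1 and Col1a1 lie farthest to the higher side in both genotypes, at 3.39 and 3.26 in transgenic liver and 3.56 and 3.16 in wild-type liver, while Col18a1 lies near 0.

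Type III collagen, which forms thin fibrils of a single kind of chain and is abundant in early scar tissue, showed the largest change of the tested chains on the log2(FPKM + 1) scale. Its gene Col3a1 (chromosome 1, 45311538 to 45349706, plus strand, GRCm38) was at 45.4 and 43.0 FPKM in transgenic liver with LPS, against 3.48 and 3.14 FPKM in untreated transgenic liver. In wild-type liver it was at 66.4 and 35.8 FPKM with LPS, against 4.50 and 2.25 FPKM without. All 4 LPS libraries were above all 4 untreated libraries, and replicate 1 of the wild-type LPS group was the highest. The log2 change was 3.39 (SE 0.32, adjusted p 0.000495) in transgenic liver and 3.56 (SE 0.32, adjusted p 3e-04) in wild-type liver. In transgenic liver Col1a1 came before Col3a1 with a pseudocount of 0.1, at 3.86 against 3.70, without replicate 2 of transgenic LPS, at 3.55 against 3.43, and by the ratio of mean FPKM, at 15.7 against 13.4.

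The bases just upstream of 3 fibrillar genes are shown because Col3a1 was among the chains that changed most, while Col5a1 and Col5a3 code for chains of the same collagen type and only Col5a1 was called higher in both genotypes. Each window is the 250 bases before the RefSeq transcript start in GRCm38.p6, written 5′ to 3′ along the gene's strand, and capitals mark matches to the searched motifs. The Col3a1 window is chr1:45311288-45311537 on the plus strand, and its capitals are a TATAAA match that begins 117 bases before the start. The Col5a1 window is chr2:27886175-27886424 on the plus strand, with matches to GGGCGG on either strand at 205 and 73 bases before the start. The Col5a3 window is chr9:20815068-20815317 on the minus strand, with a CCAAT match at 122 and GGGCGG matches at 63 and 41 bases before the start.
Col3a1: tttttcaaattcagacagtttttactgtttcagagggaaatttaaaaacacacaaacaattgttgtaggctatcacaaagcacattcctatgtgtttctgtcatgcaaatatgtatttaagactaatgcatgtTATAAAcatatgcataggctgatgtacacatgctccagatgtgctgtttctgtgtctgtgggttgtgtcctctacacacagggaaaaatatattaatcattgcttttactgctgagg
Col5a1: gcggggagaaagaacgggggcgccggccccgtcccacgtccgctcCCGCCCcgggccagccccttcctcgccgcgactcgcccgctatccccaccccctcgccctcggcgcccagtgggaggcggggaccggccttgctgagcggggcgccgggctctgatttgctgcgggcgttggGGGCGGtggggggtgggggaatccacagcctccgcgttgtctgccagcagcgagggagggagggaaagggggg
Col5a3: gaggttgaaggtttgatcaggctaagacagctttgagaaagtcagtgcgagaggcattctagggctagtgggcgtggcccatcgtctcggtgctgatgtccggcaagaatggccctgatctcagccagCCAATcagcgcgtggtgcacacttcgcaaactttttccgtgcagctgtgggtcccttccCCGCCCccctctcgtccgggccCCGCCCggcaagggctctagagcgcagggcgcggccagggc

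Short motifs were searched on both strands. A RefSeq window was found for 14 of the 17 tested collagens, 9 of them among the 12 called higher in both genotypes. CCAAT was present in 4 of these 9 and in 2 of the other 5, beside 37.5% of the 27025 genes with a window, a gene counting once if any of its windows held a match. TATAAA was found in 1 of the 9, Col3a1, and in 1 of the other 5, Col13a1, beside 14.3% of genes. GGGCGG was found in 5 of the 9 and 3 of the 5, beside 35.4% of genes, and TGANTCA, the letters bound by AP-1, in 1 of the 9, Col6a1, and 0 of the 5, beside 7.82% of genes. The windows of Col1a2, Col4a1, Col4a2, Col6a1, Col16a1 and Col18a1, and a window of Col6a2, overlap annotated exons. All CCAAT matches among the 9 and the TGANTCA match of Col6a1 were in such windows. These counts describe letters in the windows, not binding.

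Type I collagen is the main fibril of scar and is built from the chains of Col1a1 and Col1a2. Col1a1 (chromosome 11, 94936224 to 94953042, GRCm38) was at 27.9 and 18.4 FPKM in transgenic liver with LPS, against 1.67 and 1.28 FPKM in untreated transgenic liver, and at 29.7 and 16.6 FPKM in wild-type liver with LPS, against 2.23 and 1.10 FPKM in untreated wild-type liver. Neither genotype had overlapping libraries, and the mean level with LPS was 15.7 times that of untreated liver in transgenic mice and 13.9 times in wild-type mice. On the log2 scale the change was 3.26 (SE 0.33, adjusted p 0.000576) in transgenic and 3.16 (SE 0.33, adjusted p 0.00049) in wild-type liver. Its partner Col1a2 (chromosome 6, 4504814 to 4541544) was at 33.7 and 25.1 FPKM with LPS and 3.99 and 3.31 FPKM untreated in transgenic liver. The wild-type values were 37.3 and 20.6 FPKM with LPS and 4.44 and 3.00 FPKM untreated. Col1a2 changed by 2.70 (SE 0.29, adjusted p 0.000761) in transgenic and 2.62 (SE 0.29, adjusted p 0.000667) in wild-type liver, again without overlap.

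The level of Col1a1 relative to Col1a2 differed between treatments. The ratio of their FPKM was 0.828 and 0.733 in transgenic liver with LPS, against 0.418 and 0.386 in untreated transgenic liver. In wild-type liver it was 0.796 and 0.805 with LPS, against 0.502 and 0.367 untreated. The 4 LPS libraries were all above the 4 untreated libraries, so Col1a1 gained more than its partner chain. The ratio of Col3a1 to Col1a1, in contrast, overlapped between treatments, at 1.63 to 2.34 with LPS and 2.02 to 2.45 untreated. No test was made on these ratios.

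Type V collagen sits in the core of fibrils and sets their number and width. Its chain Col5a1 was at 5.12 and 4.45 FPKM in transgenic liver with LPS, against 1.31 and 0.778 FPKM untreated, and at 6.38 and 4.67 FPKM in wild-type liver with LPS, against 1.29 and 0.830 FPKM untreated. The change of Col5a1 was 1.51 (SE 0.20, adjusted p 0.00184) in transgenic and 1.66 (SE 0.20, adjusted p 0.0010) in wild-type liver. For Col5a2, the chain that pairs with it, transgenic liver had 6.27 and 5.12 FPKM with LPS and 0.511 and 0.574 FPKM untreated, and wild-type liver had 6.64 and 3.50 FPKM with LPS and 0.701 and 0.557 FPKM untreated. Col5a2 changed by 2.11 (SE 0.24, adjusted p 0.000889) in transgenic and 1.85 (SE 0.24, adjusted p 0.00133) in wild-type liver, and no untreated library reached 1 FPKM.

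Col5a3, the least widespread type V chain, went its own way. It was at 2.69 and 4.60 FPKM in transgenic liver with LPS, against 5.73 and 5.88 FPKM untreated, so both LPS libraries were lower. In wild-type liver it was at 5.92 and 5.22 FPKM with LPS, against 3.22 and 2.84 FPKM untreated, so both LPS libraries were higher. The change was -0.58 (SE 0.20, adjusted p 0.0699) in transgenic liver, which did not pass, and 0.70 (SE 0.20, adjusted p 0.0436) in wild-type liver, which did. With all 8 libraries, the wild-type change did not pass without a filter (adjusted p 0.0763) or with a filter of 5 FPKM (adjusted p 0.0588). Nor did it pass after scaling to a common median (adjusted p 0.0546) or quantile normalization (adjusted p 0.110). It passed with a pseudocount of 0.1 (adjusted p 0.0464) and with robust moderation (adjusted p 0.0407). That wild-type call was lost in 6 of the 8 fits that left out 1 library, without either untreated transgenic library or any of the 4 wild-type libraries, and without replicate 2 of transgenic LPS the transgenic change of -0.88 was called. Relative to Col5a2, the Col5a3 level was 0.429 and 0.899 in transgenic liver with LPS, against 11.2 and 10.2 untreated, and 0.891 and 1.49 in wild-type liver with LPS, against 4.60 and 5.10 untreated.

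Col27a1, a fibrillar chain best known from cartilage, was at 1.43 and 1.40 FPKM in transgenic liver with LPS, against 2.44 and 2.19 FPKM untreated, and at 3.00 and 2.36 FPKM in wild-type liver with LPS, against 2.33 and 1.48 FPKM untreated. Its changes were -0.45 (SE 0.18, adjusted p 0.0953) in transgenic and 0.35 (SE 0.18, adjusted p 0.192) in wild-type liver, and neither passed. Without replicate 1 of untreated wild type it was called lower in transgenic liver and, at 0.57, higher in wild-type liver, and without replicate 2 of that group lower in transgenic liver. A second row of this name held 0.177 to 0.670 FPKM. The other fibrillar chains Col2a1, Col11a1, Col11a2 and Col24a1 stayed under the filter, with Col11a2 at 0.579 to 0.824 FPKM in the LPS libraries and 0.0891 to 0.197 FPKM in the untreated libraries.

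The basement membrane chains Col4a1 and Col4a2, which join in the common form of type IV collagen, also rose in both genotypes. Their genes lie head to head on chromosome 8 (GRCm38), Col4a1 from 11198423 to 11312826 on the minus strand and Col4a2 from 11312805 to 11449287 on the plus strand, with starts 21 bp apart. Col4a1 was at 40.8 and 30.9 FPKM in transgenic liver with LPS, against 8.46 and 6.26 FPKM untreated, and at 37.5 and 31.2 FPKM in wild-type liver with LPS, against 8.10 and 6.86 FPKM untreated. Its change was 2.14 (SE 0.20, adjusted p 0.000502) in transgenic and 2.06 (SE 0.20, adjusted p 0.000407) in wild-type liver.

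Col4a2 had 30.7 and 26.5 FPKM in transgenic liver with LPS, against 8.16 and 7.34 FPKM untreated, and 35.6 and 26.8 FPKM in wild-type liver with LPS, against 7.79 and 6.40 FPKM untreated. The change was 1.76 (SE 0.18, adjusted p 0.00065) in transgenic and 1.98 (SE 0.18, adjusted p 0.00031) in wild-type liver. The 2 chains kept near equal levels, with a ratio of Col4a1 to Col4a2 of 1.05 to 1.33 in the LPS libraries and 0.854 to 1.07 in the untreated libraries. The Col4a3 to Col4a6 chains, known best from the kidney glomerulus and other specialised membranes, stayed under 1 FPKM in all 8 libraries and so missed the filter.

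Type VI collagen forms beaded filaments around cells, and its 3 main chains rose in both genotypes. Col6a1 was at 12.5 and 12.1 FPKM in transgenic liver with LPS, against 3.32 and 2.38 FPKM untreated, and at 14.8 and 8.93 FPKM in wild-type liver with LPS, against 2.77 and 2.54 FPKM untreated. Col6a2 was at 7.86 and 5.52 FPKM in transgenic liver with LPS, against 1.61 and 1.07 FPKM untreated, and at 8.00 and 5.20 FPKM in wild-type liver with LPS, against 1.37 and 1.15 FPKM untreated. Both chains had no overlap between treatments, with changes of 1.80 (SE 0.23, adjusted p 0.00149) and 1.71 (SE 0.23, adjusted p 0.00199) in transgenic liver. In wild-type liver Col6a1 changed by 1.78 (SE 0.23, adjusted p 0.0013) and Col6a2 by 1.73 (SE 0.23, adjusted p 0.00159).

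The third chain, Col6a3, was at 1.82 and 1.57 FPKM in transgenic liver with LPS, against 0.772 and 0.598 FPKM untreated, and at 2.11 and 1.48 FPKM in wild-type liver with LPS, against 0.732 and 0.560 FPKM untreated. Its change of 0.68 (SE 0.16, adjusted p 0.0186) in transgenic and 0.76 (SE 0.16, adjusted p 0.0122) in wild-type liver was smaller than that of its partners. The transgenic call was lost without replicate 1 of transgenic LPS or either untreated transgenic library, and the wild-type call without replicate 1 of wild-type LPS or replicate 2 of untreated wild type. The ratio of Col6a3 to Col6a1 was 0.130 to 0.166 in the LPS libraries and 0.220 to 0.264 in the untreated libraries.

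Among the fibril-associated collagens, which bind to the surface of fibrils, Col14a1 had the highest level and the largest change. It was at 22.4 and 22.0 FPKM in transgenic liver with LPS, against 6.04 and 4.94 FPKM untreated, and at 27.9 and 22.5 FPKM in wild-type liver with LPS, against 5.88 and 5.67 FPKM untreated. The changes were 1.84 (SE 0.16, adjusted p 0.000372) in transgenic and 1.94 (SE 0.16, adjusted p 0.000224) in wild-type liver. Col16a1, another chain of this class, was at 1.41 and 1.08 FPKM in transgenic liver with LPS, against 0.503 and 0.382 FPKM untreated, and at 1.57 and 1.42 FPKM in wild-type liver with LPS, against 0.403 and 0.305 FPKM untreated. It changed by 0.64 (SE 0.14, adjusted p 0.0138) in transgenic and 0.88 (SE 0.14, adjusted p 0.00326) in wild-type liver, and the transgenic call was lost without replicate 1 of transgenic LPS or either untreated transgenic library.

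The multiplexins and the transmembrane chain did not pass at the settings used throughout. Col18a1 was at 160 and 174 FPKM in transgenic liver with LPS, against 193 and 173 FPKM untreated, and at 204 and 202 FPKM in wild-type liver with LPS, against 247 and 184 FPKM untreated. Its change was -0.13 (SE 0.19, adjusted p 0.643) in transgenic and -0.07 (SE 0.19, adjusted p 0.816) in wild-type liver, and after quantile normalization it was 0.22 in both. Col15a1, the other multiplexin, was at 0.693 to 1.11 FPKM in the LPS libraries and 0.973 to 2.03 FPKM in the untreated libraries, with a change of -0.48 (SE 0.18, adjusted p 0.0840) in transgenic and -0.24 (SE 0.18, adjusted p 0.368) in wild-type liver. Col13a1, which spans the plasma membrane, was at 5.23 and 4.42 FPKM in transgenic liver with LPS, against 3.82 and 4.87 FPKM untreated, and at 2.84 and 2.60 FPKM in wild-type liver with LPS, against 4.17 and 4.23 FPKM untreated. Its change was 0.13 (SE 0.15, adjusted p 0.564) in transgenic and -0.48 (SE 0.15, adjusted p 0.0557) in wild-type liver. In wild-type liver Col13a1 was called lower with a pseudocount of 0.1 (adjusted p 0.0498), after scaling to a common median (adjusted p 0.0403) and after quantile normalization (adjusted p 0.0168), and its adjusted p over all alternatives ran from 0.0168 to 0.265.

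Of the 26 names under the filter, 2 were listed at 0 throughout and 17 were above 0 in all 8 libraries. In 7 of them all 4 LPS libraries were above all 4 untreated libraries, and in 0 all were below, while 17.1% of all features under the filter had all LPS libraries above and 1.18% below. Together with the tested chains this makes 19 of the 44 names, with 12 among the 17 tested chains, where 20.6% of all tested features had all LPS libraries above and 16.8% below. The 7 were Col4a4, Col6a5, Col8a1, Col11a2, Col12a1, Col23a1 and Col24a1. Col8a1, a short-chain network collagen of vessel walls, was at 0.366 to 0.446 FPKM in the LPS libraries and 0.0777 to 0.115 FPKM in the untreated libraries. When all features were tested without a filter, Col8a1 and Col11a2 were called higher in both genotypes and Col6a5 and Col24a1 in transgenic liver, beside 12.4% of all features in transgenic and 13.1% in wild-type liver.

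The make-up of the collagen pool differed with LPS. Summed fibrillar FPKM was 123 and 103 in transgenic liver with LPS, against 19.2 and 17.3 untreated, and 156 and 89.6 in wild-type liver with LPS, against 19.0 and 12.3 untreated. Type IV chains summed to 72.8 and 58.3 FPKM in transgenic liver with LPS, against 17.7 and 14.3 FPKM untreated, and to 74.1 and 58.6 FPKM in wild-type liver with LPS, against 16.5 and 13.8 FPKM untreated. Leaving out Col18a1, fibrillar chains held 46.5% to 53.8% of collagen FPKM in the LPS libraries and 28.6% to 36.0% in the untreated libraries, without overlap. The ratio of fibrillar to type IV FPKM was 1.53 to 2.11 with LPS and 0.888 to 1.21 untreated, while the type IV share of collagen FPKM was 25.5% to 30.5% with LPS and 29.4% to 32.3% untreated. No test was made on these sums.

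**Figure D3:**
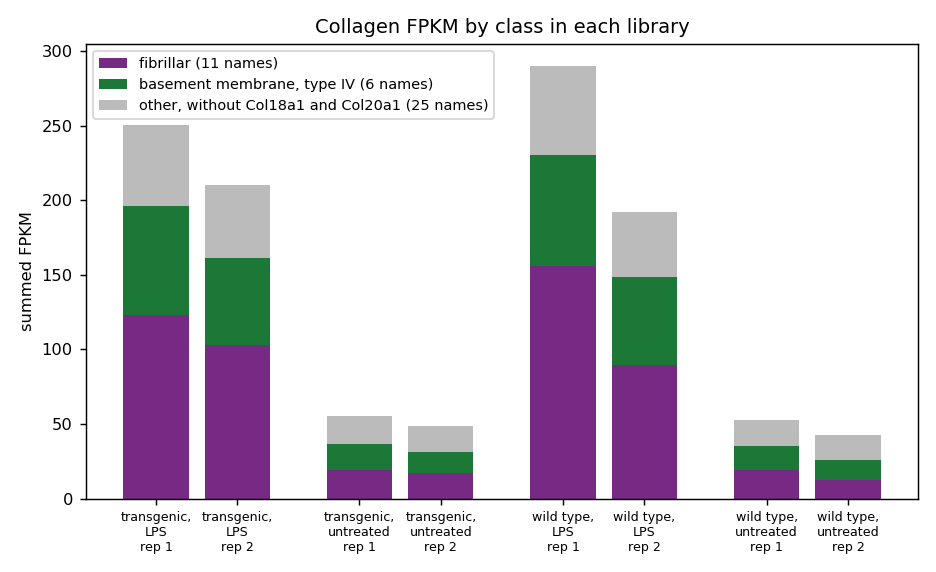
Summed FPKM of the collagen classes in each library, without Col18a1 and Col20a1. Fibrillar chains are the largest class in all 4 LPS libraries, at 89.6 to 156 FPKM, and are at 12.3 to 19.2 FPKM in the untreated libraries.

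**Figure D4:**
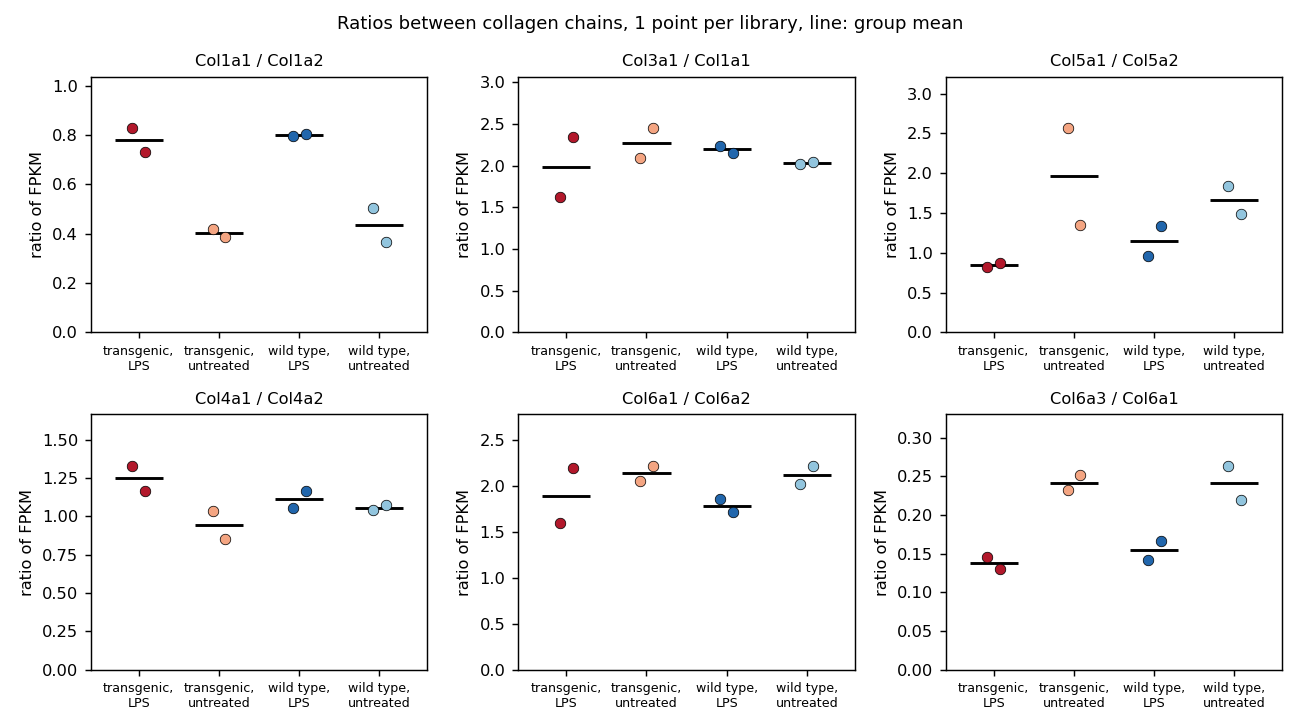
Ratios of FPKM between collagen chains in each library. Col1a1 to Col1a2 is at 0.733 to 0.828 in the LPS libraries and 0.367 to 0.502 in the untreated libraries, while Col6a3 to Col6a1 is lower in the LPS libraries.

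The effect of the transgene on collagens was asked in each treatment and as a difference of the LPS changes. With LPS, limma called 0 of 17 collagens between transgenic and wild-type liver, where it called 0% of all tested features, and 3 collagens had an unadjusted p under 0.05, beside 12.2% of all features. In untreated liver 0 of 17 were called, beside 0.0611% of all features, and 1 had an unadjusted p under 0.05, beside 5.50%. For the mean of both treatments limma called 0, beside 0.140%, with 1 at an unadjusted p under 0.05 beside 6.49%. For the difference of the LPS changes it called 0, beside 0.00872%, with 3 at an unadjusted p under 0.05 beside 10.4%.

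The fibrillar chains that rose most with LPS had wide intervals for the genotype effect. With LPS, Col3a1 differed by -0.14 between transgenic and wild-type liver, with a 95% interval of -0.89 to 0.61, and Col1a1 by 0.03, with an interval of -0.74 to 0.79. Col4a1 differed by 0.05, with an interval of -0.42 to 0.53. The difference of the LPS changes of Col1a1, transgenic minus wild type, was 0.10, with an interval of -0.97 to 1.18. A doubling, a log2 difference of 1, was thus inside the interval for the difference of the LPS changes of Col1a1. It was outside the interval for the same difference of Col4a1, which ran from -0.59 to 0.76.

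The chains with an unadjusted p under 0.05 were Col5a3, Col27a1 and Col13a1, which are named after their values were seen. For Col5a3 the LPS change was 1.28 lower on the log2 scale in transgenic than in wild-type liver (difference -1.28, SE 0.28, adjusted p 0.328). Col5a3 was higher in untreated transgenic than in untreated wild-type liver by 0.76 (SE 0.20, adjusted p 0.537) and lower with LPS by 0.53 (difference -0.53, SE 0.20, adjusted p 0.373). Without replicate 2 of transgenic LPS, Col5a3 was called both between genotypes with LPS, at -0.83, and for the difference of the LPS changes, at -1.59, in a fit that called 3.71% and 2.43% of all features in these comparisons. For Col27a1 the difference of the LPS changes was -0.81 (SE 0.25, adjusted p 0.418), and for Col13a1 it was 0.61 (SE 0.21, adjusted p 0.437). Opposite directions of the kind seen in Col5a3 and Col27a1, above in wild-type and below in transgenic liver, were found in 2.18% of all tested features.

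**Figure D5:**
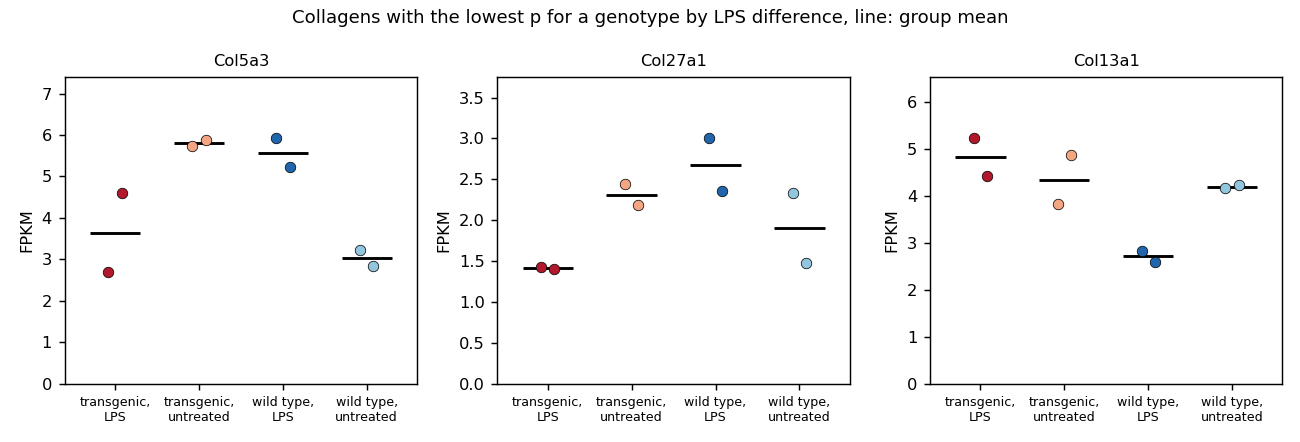
FPKM of Col5a3, Col27a1 and Col13a1 in each library. For Col5a3 the LPS libraries are below the untreated ones in transgenic liver (2.69 and 4.60 against 5.73 and 5.88 FPKM) and above them in wild-type liver (5.92 and 5.22 against 3.22 and 2.84 FPKM).

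Genes that make, process and bind collagen were read from lists written with earlier results of these data known. Of 16 tested genes for chain folding and hydroxylation, 5 were higher and 1 lower with LPS in transgenic liver, and 8 were higher and 1 lower in wild-type liver. Serpinh1, the collagen chaperone, was at 15.4 and 10.9 FPKM in transgenic liver with LPS, against 4.20 and 2.62 FPKM untreated, and its log2 change was 1.69 in transgenic and 2.03 in wild-type liver. Crtap, part of the complex that 3-hydroxylates prolines, changed by 1.22 and 1.54, and P3h3 of the same enzyme family by 0.62, which did not pass, and 1.11. Fkbp10, a chaperone of procollagen, changed by 1.38 in both genotypes. The 1 gene that was lower, named after its values were seen, was Mia3, which helps load procollagen into transport vesicles, at -0.51 in transgenic and -0.75 in wild-type liver.

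Outside the cell, collagen is trimmed, crosslinked, bound and degraded. Of 5 tested genes of propeptide cleavage 3 were higher and 0 lower in each genotype. These were Pcolce, an enhancer of C-propeptide removal, with 1.91 in transgenic and 1.70 in wild-type liver, its relative Pcolce2 with 1.40 and 1.89, and the N-propeptidase Adamts2 with 1.20 and 1.13. All 4 tested crosslinking genes, which code for lysyl oxidases, were higher in each genotype. Lox changed by 1.62 and 1.40, Loxl1 by 0.98 and 1.14, Loxl2 by 1.94 and 1.82, and Loxl3 by 0.91 and 0.98.

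Of 14 tested partners of fibrils and basement membranes 10 were higher and 0 lower in each genotype. Sparc, a collagen-binding matrix protein, changed by 2.44 and 2.48, and Lum, a proteoglycan on fibrils, by 1.32 and 1.48. Nid1, which links laminin to type IV collagen, changed by 1.73 and 1.57, and Hspg2, the basement membrane proteoglycan perlecan, by 1.41 and 1.44. All 8 tested genes of collagen degradation and its inhibitors were higher in each genotype. The collagenase Mmp8 changed by 1.88 and 1.67, the gelatinase Mmp9 by 1.48 and 1.80, and the inhibitors Timp1 by 1.47 and 1.03 and Timp3 by 1.30 and 0.54.

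Of 6 tested collagen receptors 3 were higher and 0 lower in each genotype. Cd44, a matrix receptor of many cell types, changed by 2.62 and 2.82, and Lair1, an inhibitory leukocyte receptor, by 1.30 and 1.64. Itga2, an integrin chain, was at 8.93 and 2.54 FPKM in transgenic liver with LPS, against 0.397 and 0.734 FPKM untreated, and passed in transgenic liver at 1.93 but not in wild-type liver at -0.52. The receptor kinase Ddr1 passed in wild-type liver at 0.74 but not in transgenic liver at 0.56. In each pair of changes given for these lists, the value for transgenic liver stands before that for wild-type liver. The share of all tested features called higher was 16.0% in transgenic and 16.2% in wild-type liver, and of the 53 tested genes of these lists limma called 0 between genotypes in either treatment and 0 for the difference of the LPS changes. At an unadjusted p under 0.05 there were 2 between genotypes with LPS, 1 between untreated groups and 2 for the difference of the LPS changes.

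Markers of several cell types moved with the collagens. Summed myofibroblast and smooth muscle markers were at 41.4 to 74.3 FPKM in the LPS libraries and 10.8 to 21.1 FPKM in the untreated libraries, and 5 of 6 tested were called higher in transgenic and 4 of 6 in wild-type liver. Portal fibroblast markers were at 17.5 to 22.5 FPKM with LPS and 5.04 to 8.22 FPKM untreated, with 3 of 7 higher in transgenic and 4 of 7 in wild-type liver. Stellate cell markers summed to 156 to 168 FPKM with LPS and 125 to 176 FPKM untreated, with 7 of 11 called higher and 0 lower in each genotype. Ecm1, which had the highest mean of that list, went the other way without being called. It was at 53.0 to 64.6 FPKM with LPS and 71.0 to 111 FPKM untreated, so the sum does not follow most of the list. Endothelial markers were at 311 to 338 FPKM with LPS and 120 to 143 FPKM untreated, with 8 of 10 higher in each. Leukocyte markers were at 273 to 316 FPKM with LPS and 38.6 to 52.3 FPKM untreated, with 6 of 6 higher in each. Among them the row of Cd68 is identical to that of Eif4a1, so its signal cannot be assigned. That row held 39.2 to 49.4 FPKM of the sum with LPS and 20.8 to 27.2 FPKM untreated. Of 8 pancreas markers limma called 8 lower with LPS in transgenic liver and 0 in wild-type liver, where 0 had an unadjusted p under 0.05. Cholangiocyte and adipose markers were called in 0 of 5 and 0 of 3 by limma in either genotype, with 0 at an unadjusted p under 0.05. Of 8 hepatocyte markers 1 was called higher in transgenic and 1 lower in wild-type liver. At an unadjusted p under 0.05 there were 3 hepatocyte markers in transgenic and 4 in wild-type liver. No gene of these lists was at 0 in all libraries, and the part of these cell types in the collagen changes was not tested. Without both untreated libraries numbered 1, which held the most pancreas RNA, 10 collagens were higher in transgenic and 12 in wild-type liver, beside 11.6% and 17.2% of all features.

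Replicate 1 was above replicate 2 for many collagens at once. This held for 15 of 17 tested chains in transgenic LPS, 13 of 17 in untreated transgenic, 17 of 17 in wild-type LPS and 15 of 17 in untreated wild-type liver. In the same order of groups, the median log2 difference, replicate 1 minus replicate 2, was 0.20, 0.15, 0.33 and 0.15 over these chains. Over all tested features it was -0.02, 0.05, 0.01 and 0.07. Mesothelial markers moved the same way, with sums of 19.5 and 7.01 FPKM in transgenic LPS and 15.8 and 5.73 FPKM in wild-type LPS. Their untreated sums were 6.34 and 3.83 FPKM in transgenic and 4.59 and 4.15 FPKM in wild-type liver. Between treatments limma called 0 of 4 in either genotype, with 2 at an unadjusted p under 0.05 in transgenic and 1 in wild-type liver. Within that list, the row of Krt19, a keratin that bile ducts also express and whose row is shared with Krt16, was at 8.24 and 1.35 FPKM in transgenic LPS and 7.48 and 0.922 FPKM in wild-type LPS. Myofibroblast markers did too in the LPS groups, with 74.3 and 49.5 FPKM in transgenic LPS and 59.5 and 41.4 FPKM in wild-type LPS. Without LPS their sums were 14.6 and 10.8 FPKM in transgenic liver. In untreated wild-type liver they were 15.3 and 21.1 FPKM, so replicate 2 was the higher there, unlike for most collagens. The part of these cells in the spread between replicates was not tested.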

How the data were processed

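RNA sequencing of 8 mouse liver libraries gave FPKM values, deposited by the authors as 1 table of 24545 rows. Per the submitters' processing notes, TopHat2 2.1.0, Bowtie2 2.2.6, Cufflinks, Cuffdiff 2.2.1 and mm10 were used; their order, annotation and filters: not given in the sources used here. Depth is unknown, and a value of 0 may be a failed estimate. Of 492 names in more than 1 row the row with the highest sum was kept, rows with identical values were joined, and 27 names turned into dates stayed unnamed, leaving 17294 features. Values were analysed as log2(FPKM + 1) for the 11463 features that reached 1 FPKM in 2 or more libraries, with limma 3.58.1 in R 4.3.3, 1 mean per group, trended empirical Bayes moderation, 4 residual degrees of freedom, 2-sided tests and Benjamini-Hochberg adjustment over all tested features at 0.05. The procedure was run on simulated data with few features changed, in the transgenic LPS group alone, and spreads shuffled between features. That run does not measure the error rate in these data. Positions are from GENCODE vM21 and upstream windows from RefSeq GRCm38.p6. Every collagen row was counted; tested chains of the fibrillar and type IV classes and other tested chains called in any comparison are given per library, the rest by range or count, and Col13a1 and Col18a1 were added after their values were seen. From each pathway list up to 4 called genes with the largest change are named, with Mia3 added. The members and gene lists were chosen with earlier results of these data known. Alternatives were another pseudocount, filter or scaling, robust moderation, fits on the compared groups, a replicate block and leaving out libraries. Labels do not say that replicates shared a litter or a day.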

Additional observations from a re-analysis of the deposited data

Results flagged for a closer look

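Col5a3 stood out because its LPS libraries were below the untreated ones in transgenic liver and above them in wild-type liver. The difference of the LPS changes, transgenic minus wild type, was -1.28 on the log2 scale, and the interaction test of limma gave an adjusted p of 0.328, so the difference did not pass.

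Col27a1 showed the same opposite directions, with a difference of -0.81 and an adjusted p of 0.418 by the same test. Over all tested features 2.18% showed these directions.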

How the results depend on the processing

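The LPS calls of 10 chains (Col1a1, Col1a2, Col3a1, Col4a1, Col4a2, Col5a1, Col5a2, Col6a1, Col6a2 and Col14a1) held in both genotypes in every alternative fit in which they were tested. Counts of collagens called with LPS, in either direction, lay between 10 and 16 in transgenic and between 10 and 14 in wild-type liver. These ranges cover the alternatives that kept both libraries of each group compared. The share of all features called in them was 17.8% to 28.9% in transgenic and 16.1% to 24.2% in wild-type liver. With 1 library left out, the fibrillar median change lay between 1.99 and 2.24 in transgenic and between 1.47 and 2.23 in wild-type liver. Leaving out 1 library gave 0 to 1 collagens between genotypes with LPS and 0 to 1 for the difference of the LPS changes, and the 1 was Col5a3, without replicate 2 of transgenic LPS, where 425 and 279 of all 11463 features were called against 0 and 1 with all libraries. Without a filter 16 of 41 collagens were called in transgenic and 14 of 41 in wild-type liver, beside 17.8% and 16.1% of all features, and with a filter of 5 FPKM 10 of 12 in each, beside 24.0% and 18.1%. Quantile normalization turned the change of Col18a1 to 0.22 in both genotypes. The calls of Col6a3 and Col16a1 were then lost in both, and that of Col5a3 in wild-type liver. The change of Col13a1 in transgenic liver lay between -0.014 and 0.27 when 1 library was left out, the lowest without replicate 1 of untreated transgenic, and was -0.014 without both untreated libraries numbered 1. Col18a1 in wild-type liver lay between -0.28 and 0.14 when 1 library was left out, the highest without replicate 1 of untreated wild type, and was 0.14 without both untreated libraries numbered 1, an alternative chosen after seeing the data, as was the sum of both Col27a1 rows. The cause was not tested. With the replicate number as a block, 12 collagens were called in transgenic and 13 in wild-type liver, beside 28.9% and 24.2% of all features. Between genotypes that fit called 0 collagens. Replicate differences correlated between groups at 0.04 to 0.46 over features, and the labels do not say what the numbers share. Depth is unknown, and with 2 libraries a group small genotype effects lie inside the intervals given.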
